A study of Mus musculus with 70 samples.

Results

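The genes described here are 9 markers of pituitary stem and folliculostellate cells, namely Sox2, Sox9, Hesx1, Nes, S100b, Gfra2, Gfap, Vim and Cdh1. They were chosen by name from the 22835 genes of an RNA-seq table of mouse pituitary, each by its transcript with the highest mean level, and their loci were then looked up in lists of thyroid hormone receptor binding sites and of T3-regulated open chromatin. The study compared pituitaries of hypothyroid and hyperthyroid adult male mice of the C57BL/6J strain. Hypothyroid mice received the antithyroid drug methimazole (MMI) together with perchlorate in the drinking water, and hyperthyroid mice received the same treatment with T3 added at its end. Both treatments were given to wild-type mice and to mice labelled Thrb-KO, which carry a deletion in Thrb, the gene of thyroid hormone receptor β (TRβ). There were 4 libraries in each wild-type group and 5 in each group labelled Thrb-KO, and each library was made from a pool of 3 whole pituitaries.

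The pituitary keeps a pool of stem cells that express the transcription factors SOX2 and SOX9, line the remnant of its embryonic cleft and are joined by E-cadherin. Folliculostellate cells are star-shaped cells without hormone granules that form a network between the hormone cells and are classically recognised by S100B, with GFAP and vimentin in some of them. The groups of markers overlap, and several of the genes are also active in fibroblasts, blood vessels or the glia-like pituicytes of the posterior lobe.

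Totals per library were 21453548 to 55273749 reads. As a check of the tissue label, all 14 markers of hormone cells were detected above 1 CPM (reads scaled to the library total) in every library and summed to 69914 to 224504 CPM. Thrb itself was not lower in libraries labelled Thrb-KO: hypothyroid means were 257 CPM ± 27.3 (SD, n = 4) in wild type and 271 CPM ± 20.1 (SD, n = 5) in libraries labelled Thrb-KO. With T3 its mean was 104 CPM ± 22.8 (SD, n = 4) in wild type and 260 CPM ± 32.0 (SD, n = 5) in libraries labelled Thrb-KO. The table holds 1 value per transcript, so a loss of part of the gene could not be read from it, and every direction by genotype below rests on the labels. The libraries also fell into 2 sets: the mitochondrial leucyl-tRNA synthetase gene Lars2 stood at 2571 to 3420 CPM in replicates 1 and 2 of every group and at 53.2 to 95.1 CPM in replicates 3 to 5. Both sets occur in all 4 groups, and values within each set are given where a result needs them. Hyperthyroid wild-type replicate 3 was least like its own group, with a median r of 0.925 over tested genes. The next lowest median r of any library was 0.971.

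In the main fit, without a term for replicate number or library set, Nes alone of the 9 genes passed the test in any comparison. Hesx1 was too low to be called. Nes was higher in libraries labelled Thrb-KO than in wild type under both treatments, by 1.50-fold in hypothyroid and by 1.72-fold in hyperthyroid pituitaries. In that fit limma called 0 of the 7 fitted genes for T3 against MMI in either genotype, as did edgeR and DESeq2. At an unadjusted p under 0.05 there were 4 in wild type and 1 in libraries labelled Thrb-KO. With the replicate block or the library set as a term, Vim was called lower with T3 in wild type (limma adjusted p = 0.00117 and 0.000535). Calls came from limma, fitted to log2(CPM + 1) of all 18 libraries, and needed a Benjamini-Hochberg adjusted p below 0.05 as well as a change of 1.5-fold or more on that scale. The fit held 13145 genes with CPM above 1 in every library, among them 7 of the 9. S100b, above 1 CPM in 16 of 18 libraries, was read from a wider fit of 14472 genes, and Hesx1, above 1 CPM in 0 libraries, from a fit without a filter. With at most 0.365 CPM, Hesx1 could not differ by 1.5-fold between groups on the log2(CPM + 1) scale, so it was not open to a call. Over all 13145 genes the share called was 9.46% for T3 in wild type, 1.01% for T3 in libraries labelled Thrb-KO, and 4.26% for the difference between these responses. For libraries labelled Thrb-KO against wild type it was 3.02% under hypothyroid and 4.86% under hyperthyroid conditions, or 1.01% and 2.54% counting higher calls only.

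**Figure D1:**
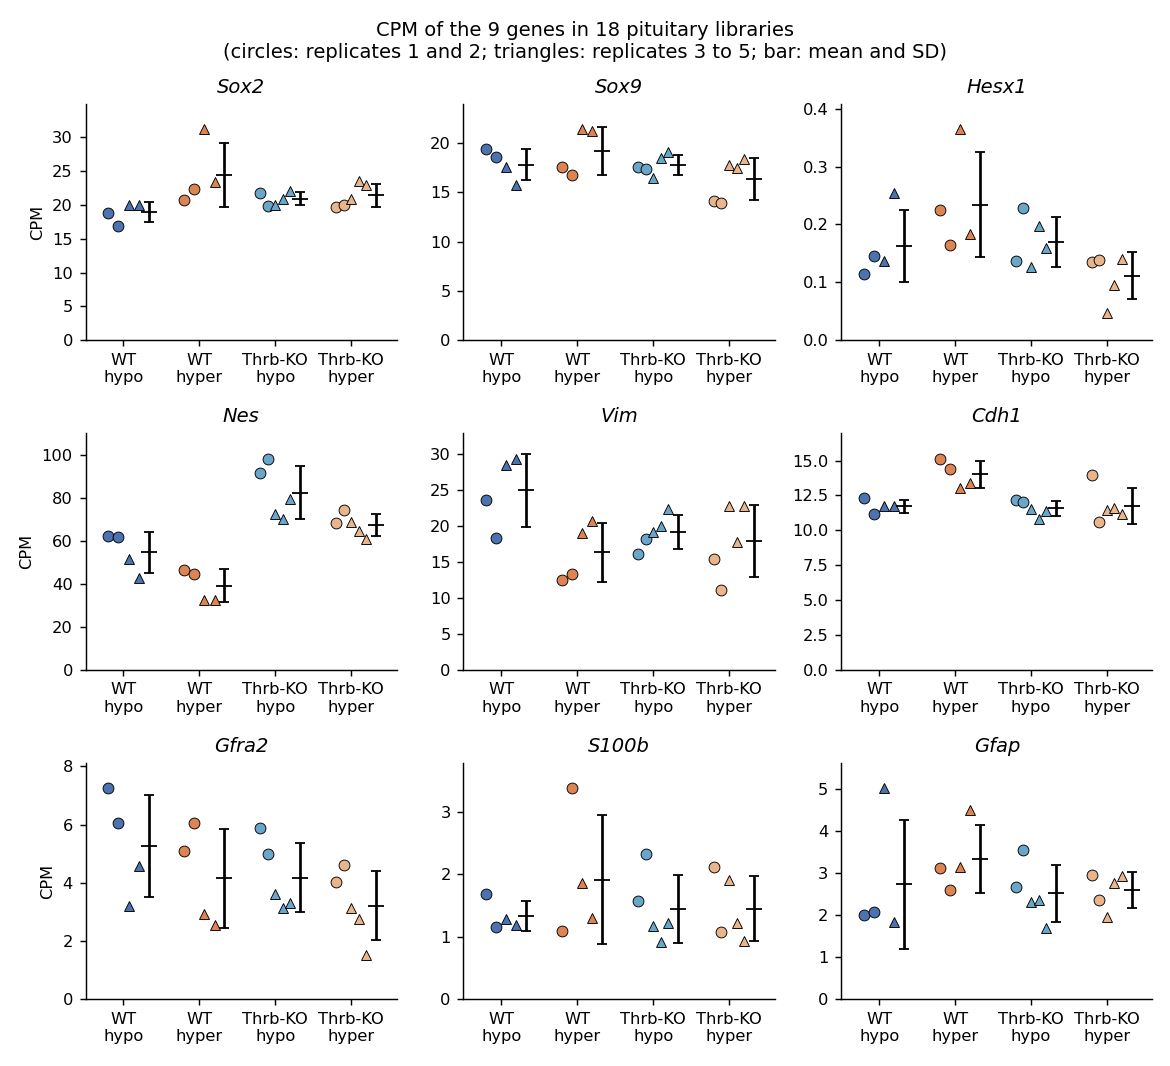
CPM of each of the 9 genes (vertical axes, from 0) in each of the 18 libraries, by genotype and treatment (hypo, MMI; hyper, MMI with T3). Circles are replicates 1 and 2, triangles replicates 3 to 5, and bars the group mean with its SD. Nes lies higher in both groups labelled Thrb-KO than in the wild-type group under the same treatment, while Hesx1 stays below 0.4 CPM throughout.

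Levels of different genes were compared per kilobase of the longest coding transcript in GENCODE. Over all 18 libraries Nes averaged 10.2 CPM per kb ± 2.99 (SD), Vim 8.90 ± 2.27 and Sox2 8.71 ± 1.21, and the order of these 3 changed between groups. In hypothyroid libraries labelled Thrb-KO Nes at 11.5 to 16.1 CPM per kb lay above Vim at 7.34 to 10.2 and Sox2 at 8.10 to 8.97. In hyperthyroid wild type Sox2 at 8.42 to 12.7 CPM per kb lay above Nes at 5.31 to 7.62, and Vim overlapped both. In hypothyroid wild type Vim lay above Sox2, in hyperthyroid libraries labelled Thrb-KO Nes lay above Sox2, and the third gene overlapped both in each case. Sox9 followed at 4.28 CPM per kb ± 0.479 and Cdh1 at 2.75 ± 0.289, and Sox9 lay above Cdh1 in each group. Gfra2 at 1.19 CPM per kb ± 0.434, Gfap at 1.05 ± 0.335 and S100b at 1.03 ± 0.415 overlapped in each group, and all their libraries lay below those of Cdh1. Hesx1 was lowest at 0.146 CPM per kb ± 0.0615. Whole-gland RNA mixes all cell types, so fewer cells of a type and less RNA per cell cannot be told apart in any of these values.

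Nes encodes nestin, an intermediate filament protein of neural and many other progenitor cells. In hypothyroid wild-type pituitary its level was 62.4, 62.1, 51.4 and 42.9 CPM in replicates 1 to 4. In hypothyroid libraries labelled Thrb-KO it was 91.9, 98.4, 72.4, 70.3 and 79.7 CPM in replicates 1 to 5. The groups did not overlap, and the difference was 0.59 on the log2 scale (SE 0.137, limma adjusted p = 0.0115). Groups separated in this upward direction for 7.6% of all tested genes. The size lay at the 1.5-fold limit itself. It fell just short of that limit at 0.57 on the log2 scale with CPM scaled by TMM factors, with edgeR and with DESeq2, at adjusted p-values of 0.00541, 0.00911 and 0.000854. Leaving out hypothyroid wild-type replicate 3 or 4 gave 0.56 and 0.48, and leaving out replicate 1 or 2 labelled Thrb-KO gave 0.55 and 0.52, each of which ended the call.

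With T3 the gap was wider. In hyperthyroid wild-type pituitary Nes stood at 46.7, 44.9, 32.5 and 32.6 CPM. In hyperthyroid libraries labelled Thrb-KO it stood at 68.5, 74.4, 69.1, 64.6 and 60.9 CPM. Every library labelled Thrb-KO was above every wild-type library, with a difference of 0.79 on the log2 scale (SE 0.137, limma adjusted p = 0.000637), and groups separated upward for 7.61% of tested genes. This call held under each of the 12 other settings that gave a value for it and without any single library, between 0.63 and 0.97 on the log2 scale. Within replicates 1 and 2 alone the Nes difference by genotype was 0.60 under hypothyroid and 0.63 under hyperthyroid conditions, and within replicates 3 to 5 alone it was 0.65 and 0.97.

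Nes also had lower estimates with T3. In wild type the difference from MMI was -0.48 on the log2 scale (SE 0.144, limma adjusted p = 0.0254), with overlapping groups and a size short of 1.5-fold, and 19.3% of tested genes came under that p limit at any size. In libraries labelled Thrb-KO it was -0.28 (SE 0.129, adjusted p = 0.577). The responses differed by 0.20 (SE 0.193, adjusted p = 0.817), so a difference in the T3 response of Nes between genotypes was not shown.

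**Figure D2:**
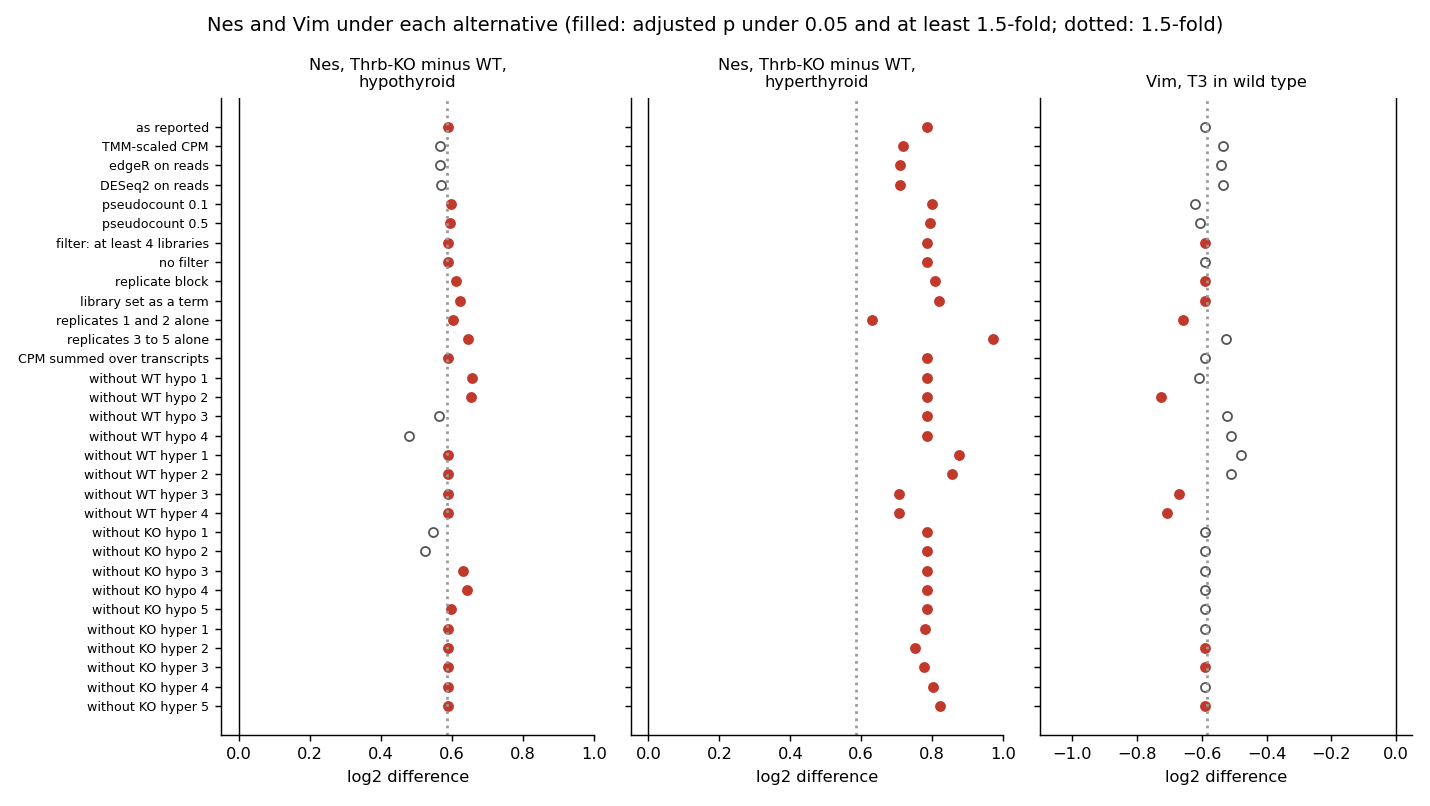
Log2 difference (horizontal axes) of Nes by genotype and of Vim by T3 in wild type, as reported and under each alternative analysis, including the omission of each library. Filled points pass both limits and dotted lines mark 1.5-fold. Nes passes throughout under hyperthyroid conditions, and the hypothyroid Nes and the Vim values lie close to the fold limit.

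Markers of other cell types were followed beside Nes, since the gene is also known from blood vessels and pericytes. Among 8 endothelial markers 0 were called in either comparison by genotype by limma, edgeR or DESeq2, with 1 and 0 at an unadjusted p under 0.05. Under hypothyroid conditions 1 marker, with a lower estimate, came under a limma adjusted p of 0.05 short of 1.5-fold. The 8 summed to 217 to 331 CPM in hypothyroid wild type and 208 to 303 CPM in hypothyroid libraries labelled Thrb-KO. Under hyperthyroid conditions the endothelial sum was 166 to 307 and 180 to 269 CPM. The sum of 8 fibroblast and pericyte markers was 401 to 579 CPM in hypothyroid wild type and 405 to 472 CPM in hypothyroid libraries labelled Thrb-KO. Of these 8 markers 3 had positive and 5 negative estimates there, with a median of -0.06 on the log2 scale. The 1 call was Col1a2, a chain of type I collagen, at -0.64 (adjusted p = 0.00932), which was lost without hypothyroid wild-type replicate 1 (-0.57). Of 8 immune markers 6 were tested, and all 6 had lower estimates in hypothyroid libraries labelled Thrb-KO. Limma called 3 of them, against 3.02% of all tested genes, while edgeR called 5 and DESeq2 all 6. The 6 summed to 95.8 to 114 CPM in wild type and 55.0 to 66.2 CPM in libraries labelled Thrb-KO. C1qa and C1qb, complement components made by macrophages, differed by -0.84 (adjusted p = 0.00372) and -0.83 (adjusted p = 0.0031). In hyperthyroid libraries labelled Thrb-KO C1qa was again called lower, at -0.62 (adjusted p = 0.0205), but not without hyperthyroid wild-type replicate 3 or 4 (-0.50 each) or hyperthyroid replicate 2 or 4 labelled Thrb-KO (-0.58 and -0.53). In that comparison limma called 1 of the 6 immune markers and edgeR and DESeq2 3 each, where limma called 4.86% of all tested genes. The 9 tested markers of posterior lobe and neural tissue all had positive estimates in hypothyroid libraries labelled Thrb-KO, with 0 called by limma, edgeR or DESeq2 and 2 at an unadjusted p under 0.05, and the 9 summed to 117 to 174 CPM in wild type and 157 to 194 CPM in libraries labelled Thrb-KO. Under hyperthyroid conditions 5 of these 9 had positive and 4 negative estimates by genotype, with a median of 0.03 on the log2 scale. Of the 8 fibroblast and pericyte markers 2 were positive and 6 negative in that comparison. Limma, edgeR and DESeq2 called 0 of either list there. No marker of any list was at 0 in all 18 libraries. The part of these cell types in the Nes values was not tested.

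Vim encodes vimentin, the intermediate filament of mesenchymal and many stem cells. Its level in hypothyroid wild type was 23.7, 18.4, 28.5 and 29.4 CPM in replicates 1 to 4. In hyperthyroid wild type it was 12.4, 13.3, 19.0 and 20.7 CPM. The highest hyperthyroid libraries reached above the lowest hypothyroid one, and the difference was -0.59 on the log2 scale (SE 0.206, limma adjusted p = 0.052), which missed the threshold. Replicates 1 and 2 gave less Vim than replicates 3 and 4 in both groups. With the replicate number as a block the same difference had an adjusted p of 0.00117, and with the library set as a term 0.000535, and both made it a call. Other settings went either way: it was also called in replicates 1 and 2 alone at -0.66 (adjusted p = 0.00247) and under the wider filter (adjusted p = 0.0496), while in replicates 3 to 5 alone the difference of -0.53 (adjusted p = 0.0207) was short of 1.5-fold. With TMM-scaled CPM, edgeR and DESeq2 it was -0.54 each, with adjusted p-values of 0.104, 0.101 and 0.0718, and not a call.

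Leaving out hypothyroid wild-type replicate 2 or hyperthyroid wild-type replicate 3 or 4 moved the Vim difference to -0.73, -0.67 and -0.71, each called, and leaving out hyperthyroid replicate 2, 3 or 5 labelled Thrb-KO left it at -0.59 with adjusted p-values of 0.0245, 0.0479 and 0.0472. The other way, leaving out hyperthyroid wild-type replicate 1 or 2 gave -0.48 (adjusted p = 0.155) and -0.51 (0.134), and leaving out hypothyroid wild-type replicate 3 or 4 gave -0.52 (0.139) and -0.51 (0.148). In libraries labelled Thrb-KO the level was 16.1 to 22.4 CPM with MMI and 11.1 to 22.8 CPM with T3, a difference of -0.13 (SE 0.184, adjusted p = 1). The responses differed by 0.47 (SE 0.276, adjusted p = 0.511). Among the 8 fibroblast and pericyte markers 3 had positive and 5 negative T3 estimates in wild type, from -0.73 to 0.34 with a median of -0.13. The 2 called were collagen genes, Col1a1 at -0.73 (adjusted p = 0.0143) and Col3a1 at -0.62 (adjusted p = 0.0147), where 9.46% of all tested genes were called. Col3a1 fell short of 1.5-fold with TMM-scaled CPM, edgeR and DESeq2 (-0.57 each), and both calls were lost without hypothyroid wild-type replicate 1 (-0.61 and -0.53) or hyperthyroid wild-type replicate 3 (-0.55 and -0.44). The fibroblast list summed to 307 to 578 CPM in hyperthyroid wild type, which overlaps its hypothyroid range. Of 8 endothelial markers 1 had a positive and 7 negative T3 estimates in wild type (median -0.26). All 6 tested immune markers had negative ones (median -0.11). Limma, edgeR and DESeq2 called 0 of either list. In each, 1 marker came under a limma adjusted p of 0.05 short of 1.5-fold, where 19.3% of tested genes came under it at any size. The part of these cell types in Vim was not tested.

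Gfap encodes the glial intermediate filament protein. Hypothyroid wild type gave 2.00, 2.07, 5.03 and 1.85 CPM, where replicate 3 stood apart, and hyperthyroid wild type gave 3.13, 2.61, 3.16 and 4.50 CPM. The difference was 0.28 on the log2 scale (SE 0.209, adjusted p = 0.447), and without that replicate it was 0.53 (adjusted p = 0.0325), still under 1.5-fold. With 0.1 CPM added in place of 1, the difference over all replicates was 0.38. Libraries labelled Thrb-KO lay at 1.69 to 3.57 CPM with MMI and 1.95 to 2.96 CPM with T3. Of the 9 tested markers of posterior lobe and neural tissue, 8 had positive and 1 negative T3 estimates in wild type (median 0.34). Limma called 0 of these 9, edgeR 3 and DESeq2 2, where limma called 9.46% of all tested genes. The part of that tissue in the Gfap, S100b and Sox2 values was not tested. Gfap overlaps Gm17536 on the opposite strand, and reads of the pair cannot be told apart without strand.

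Sox2 and Sox9 encode the SOX transcription factors that mark the stem cell pool. Sox2 stood at 18.9, 16.9, 20.0 and 20.0 CPM in hypothyroid wild type and at 20.7, 22.3, 31.2 and 23.5 CPM in hyperthyroid wild type. All hyperthyroid libraries were above all hypothyroid ones, as held upward for 5.66% of tested genes. The difference was 0.34 on the log2 scale (SE 0.106, limma adjusted p = 0.0317), or 1.26-fold, and so not a call. When each library was left out, this difference ran from 0.22 to 0.41, with limma adjusted p-values from 0.0138 to 0.0983. In libraries labelled Thrb-KO Sox2 was 19.9 to 22.0 CPM with MMI and 19.7 to 23.6 CPM with T3, a difference of 0.03 (SE 0.095, adjusted p = 1). The responses differed by -0.30 (SE 0.143, adjusted p = 0.318).

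The Sox2 gene lies within the longer transcript Sox2ot on the same strand, so reads of the pair may be shared. Sox9 averaged 17.8 CPM ± 1.58 (SD, n = 4) and 19.2 CPM ± 2.43 (SD, n = 4) in hypothyroid and hyperthyroid wild type. The groups labelled Thrb-KO had means of 17.8 CPM ± 1.03 (SD, n = 5) and 16.3 CPM ± 2.14 (SD, n = 5). Its log2 differences ran from -0.22 to 0.10 over the comparisons, with adjusted p-values of 0.184 or more, and 95% intervals between -0.53 and 0.33.

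Hesx1 encodes a homeodomain repressor of the early pituitary primordium and was at the edge of detection. Hypothyroid wild type held 4 to 7 reads per library and hyperthyroid wild type 6 to 10, or 0.225, 0.165, 0.365 and 0.183 CPM. Hyperthyroid libraries labelled Thrb-KO held 2 to 5 reads, or 0.136, 0.139, 0.0477, 0.0946 and 0.140 CPM, all below hyperthyroid wild type, an order that 3.69% of tested genes shared. Pooled over libraries these were 0.223 CPM (95% Wilson interval 0.158 to 0.314) and 0.107 CPM (0.0678 to 0.170), intervals that cover counting error only. In the fit without a filter the difference was -0.15 on the log2(CPM + 1) scale (SE 0.0462, adjusted p = 0.0597). The ratio of group means was 0.475, but the added 1 CPM compresses it, so the fold limit could not be met at this level. Hypothyroid groups overlapped, at 0.163 CPM ± 0.0621 (SD, n = 4) in wild type and 0.170 CPM ± 0.0428 (SD, n = 5) in libraries labelled Thrb-KO.

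Cdh1 encodes E-cadherin, the adhesion protein of epithelia and of the stem cell niche. It stood at 12.3, 11.1, 11.7 and 11.7 CPM in hypothyroid wild type and at 15.1, 14.4, 13.1 and 13.4 CPM in hyperthyroid wild type. The groups were separate, as held upward for 5.66% of tested genes, and the difference was 0.24 on the log2 scale (SE 0.0843, limma adjusted p = 0.0586). In libraries labelled Thrb-KO the means were 11.6 CPM ± 0.534 (SD, n = 5) with MMI and 11.7 CPM ± 1.28 (SD, n = 5) with T3. Against hyperthyroid wild type the latter differed by -0.24 (SE 0.08, adjusted p = 0.062).

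Gfra2 encodes a co-receptor for neurturin. Its level moved with the library set more than with any group, at 4.02 to 7.25 CPM in replicates 1 and 2 and 1.54 to 4.57 CPM in replicates 3 to 5. Group means were 5.27 CPM ± 1.76 (SD, n = 4) and 4.15 CPM ± 1.69 (SD, n = 4) in hypothyroid and hyperthyroid wild type, and 4.18 CPM ± 1.19 (SD, n = 5) and 3.21 CPM ± 1.19 (SD, n = 5) in libraries labelled Thrb-KO. No comparison of Gfra2 came under an adjusted p of 0.536. S100b, the calcium-binding protein that defines folliculostellate cells, stood at 1.68, 1.17, 1.29 and 1.20 CPM in hypothyroid wild type. In hyperthyroid wild type it was 1.10, 3.38, 1.87 and 1.31 CPM, a difference of 0.27 (SE 0.212, adjusted p = 0.477) with overlapping groups. The added 1 CPM compresses differences at this level, and the ratio of the group means was 1.44. Under the 12 other settings the difference ran from 0.20 to 0.59. Without hyperthyroid wild-type replicate 2, its highest library, the S100b difference was 0.05, and without replicate 1 it was 0.40. Libraries labelled Thrb-KO spread from 0.920 to 2.32 CPM. S100b overlaps Dip2a on the opposite strand, and reads of that pair cannot be told apart without strand.

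**Figure D3:**
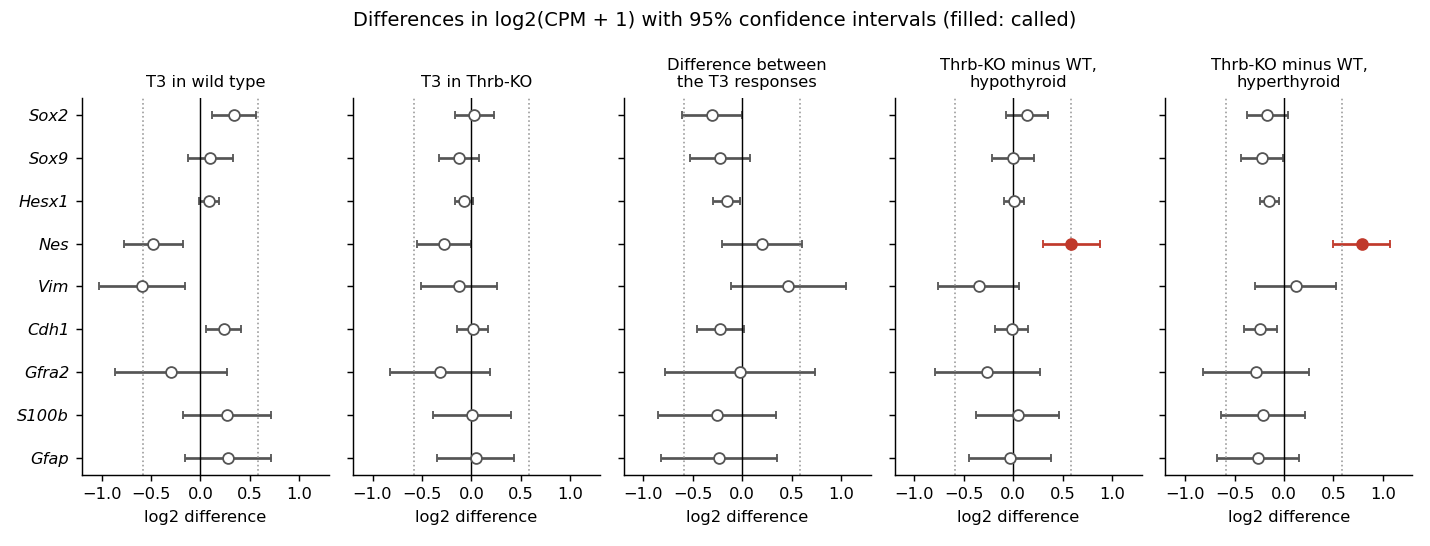
Log2 difference with its 95% confidence interval for each of the 9 genes (rows) in the 5 comparisons (panels). Filled points are called and dotted lines mark 1.5-fold. Nes by genotype is filled in both treatments, and the wild-type T3 panel holds Vim on the fold limit with an open point. Hesx1 comes from a fit without a filter, at levels where the added 1 CPM compresses differences.

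Estimates of the members differed in direction within a comparison. In wild type 4 of the 7 genes above the filter had positive and 3 negative T3 estimates, with a median of 0.10 on the log2 scale beside -0.04 over all tested genes, which was -0.14 beside -0.03 in replicates 1 and 2 alone. By genotype under hyperthyroid conditions 2 were positive and 5 negative, with a median of -0.22 beside 0.07. Both medians depended on the scaling, at -0.29 beside 0.0035 with TMM-scaled CPM and -0.33 beside -0.02 with edgeR. Across the 18 libraries the 3 pairs of the 9 genes with the strongest correlations of log2(CPM + 1) were S100b with Cdh1 (Pearson r = 0.53), Sox2 with Gfra2 (r = -0.52) and Hesx1 with Nes (r = -0.50). The libraries share groups and sets. Within replicates 1 and 2 and within replicates 3 to 5 these were 0.42 and 0.55 for S100b with Cdh1, -0.13 and -0.37 for Sox2 with Gfra2, and -0.05 and -0.68 for Hesx1 with Nes. Outside these 3 pairs, Nes with Cdh1 was -0.49 over the 18 libraries and -0.62 and -0.87 within the 2 sets. Sox2 with Cdh1 was 0.25 over the 18 libraries and 0.51 and 0.61 within the 2 sets.

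Other genes followed single members more closely over the 18 libraries. Nes was most like 9130014G24Rik (r = 0.96), Daam1 (r = 0.96) and Prkce (r = 0.95). Sox2 was most like 1500009C09Rik (r = 0.94), Zfp566 (r = 0.91) and Tmem97 (r = 0.91), and Vim most like Flot1 (r = 0.96), Jmjd8 (r = 0.95) and Izumo4 (r = 0.94). For Gfra2 the nearest were Nrp2 (r = 0.94), Steap4 and Robo3 (r = 0.93 each). Within replicates 1 and 2 the r of Gfra2 with Nrp2 was 0.73. Cdh1 had Zfp862 (r = 0.85), Prex1 (r = 0.85) and Cecr2 (r = 0.84) as its nearest genes. Sox9 had Smox, Mmp11 and Nrtn (r = 0.79, 0.78 and 0.76), of which Nrtn encodes neurturin. Gfap had no close counterpart, with Evi2a first (r = 0.69), then Ihh and Nrbf2 (r = 0.64 each). These are descriptions of the most alike out of all tested genes.

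A list of 46 other genes tied to these cells, of which 45 were in the table and 39 were tested, was compared in the same way. For T3 in wild type 3 were called higher and 2 lower, with a median of 0.06 on the log2 scale, where 9.46% of all tested genes were called. Ly6a, the surface antigen Sca-1, went from 7.52 to 10.5 CPM with MMI to 11.9 to 25.0 CPM with T3 (log2 difference 0.90, SE 0.196, adjusted p = 0.00238). Aldh1a1, a retinaldehyde dehydrogenase, went from 5.25 to 6.24 CPM to 8.75 to 10.7 CPM (0.63, SE 0.106, adjusted p = 0.00023). Lhx3, a LIM homeodomain factor of progenitors and hormone cells alike, rose by 0.60 (adjusted p = 0.006). Epcam, an epithelial adhesion molecule, fell by 0.78 on the log2 scale, from 244 to 276 CPM to 144 to 167 CPM (adjusted p = 9.87e-07). Isl1, a LIM homeodomain factor also found in gonadotrophs and thyrotrophs, fell by 0.75 (adjusted p = 0.000332). The 3 that rose had separate groups, as held upward for 5.66% of tested genes. Without hyperthyroid wild-type replicate 4 Aldh1a1 (0.58) and Lhx3 (0.48) fell short of 1.5-fold, as did Lhx3 without hypothyroid wild-type replicate 1 or 2 (0.58 and 0.55) or hyperthyroid wild-type replicate 1 (0.58).

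In libraries labelled Thrb-KO 0 of the 39 were called for T3 by limma, edgeR or DESeq2, with 8 at an unadjusted p under 0.05. The responses of Epcam differed between genotypes by 0.55 (SE 0.108, adjusted p = 0.00398), under the 1.5-fold limit, with 188 to 204 CPM with MMI and 152 to 188 CPM with T3 in libraries labelled Thrb-KO. Between genotypes under hypothyroid conditions 0 were called by limma and edgeR and 1 by DESeq2, with 11 at an unadjusted p under 0.05. Short of 1.5-fold, 2 higher and 3 lower genes came under a limma adjusted p of 0.05. At any size, 901 of all 13145 tested genes came under that limit. Under hyperthyroid conditions 4 were called lower in libraries labelled Thrb-KO, namely the Notch receptor Notch2 (-0.72), the tetraspanin Cd9 (-0.70), the chemokine receptor Cxcr4 (-0.61) and the retinaldehyde dehydrogenase Aldh1a2 (-0.59). Only Anxa1, annexin A1, a folliculostellate product, was called higher (0.72, adjusted p = 0.00666). Of all tested genes 4.86% were called in that comparison. Cxcr4 fell short of 1.5-fold without hyperthyroid wild-type replicate 3 or 4 (-0.52 and -0.51), and without hyperthyroid replicate 1 or 2 labelled Thrb-KO so did Cxcr4 (-0.56 and -0.53) and Aldh1a2 (-0.54 and -0.51). The list's median in that comparison was -0.18 beside 0.07 over all tested genes, or -0.24 beside 0.0035 with TMM-scaled CPM and -0.29 beside -0.02 with edgeR. Notch2 was the exception to separate groups among these 5, where 3.69% of tested genes separated downward and 7.61% upward. Its wild-type libraries with T3 ran from 83.8 to 168 CPM.

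**Figure D4:**
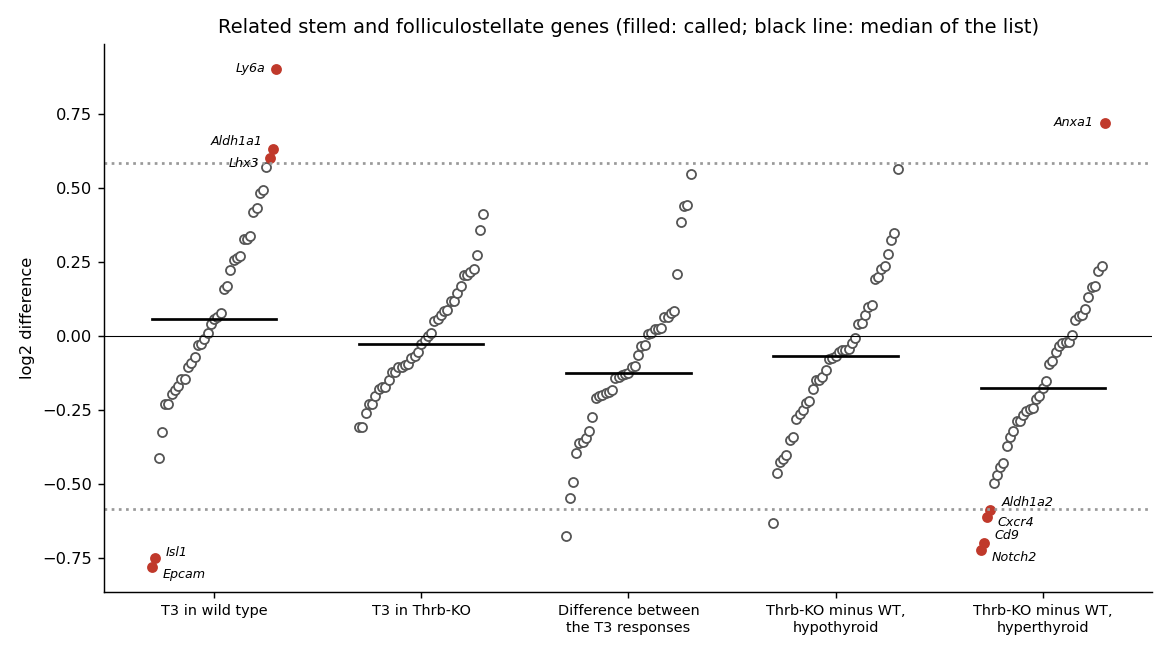
Log2 difference (vertical axis) of each of the 39 tested related genes in the 5 comparisons, sorted within each. Filled points are called and named, black lines are the median of the list and dotted lines mark 1.5-fold. The 5 genes called for T3 in wild type and the 5 called by genotype under hyperthyroid conditions share no name.

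Hormone genes gave the scale of the T3 response in the same libraries. Tshb, the TSH β subunit, fell by 4.95 on the log2 scale in wild type (adjusted p = 9.4e-07) and fell by 4.83 in libraries labelled Thrb-KO (adjusted p = 2.77e-06). Trhr, the TRH receptor, fell by 4.08 in wild type (adjusted p = 1.78e-13). Melanotrope markers gave 1 call, Pcsk2 at -0.68 in hypothyroid libraries labelled Thrb-KO (adjusted p = 0.0106), which was lost without hypothyroid wild-type replicate 4 (-0.57, adjusted p = 0.0542). Limma called 0 of 3 red blood cell markers and 0 of 3 tested cell division markers, and each set of 3 summed to 24.4 to 80.8 CPM and to 21.0 to 60.3 CPM over all libraries. All 3 red blood cell markers had positive T3 estimates in wild type (0.65 to 0.76), 0 of them at an unadjusted p under 0.05. With T3 all 3 division markers had positive estimates in libraries labelled Thrb-KO (median 0.64), 2 of them at an unadjusted p under 0.05. In wild type 1 division marker was positive and 2 negative.

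The loci were next compared with 3 lists on the mm9 genome: 8051 sites bound by TRβ in untreated pituitary, 5164 in untreated cerebral cortex, and 1776 ATAC peaks that T3 changed in pituitary. TRβ sites came from chromatin affinity purification (ChAP-seq), in which receptors made from a tagged Thrb allele (HAB) are biotinylated by the BirA ligase, and mice with BirA alone served as control. The labels of the untreated control libraries conflict: their titles say BirA, but their genotype entry is that of the HAB mice. They were taken as controls by title, and every control read count below rests on that. By the study's methods these mice were adult males of mixed background, 129/SvJ with C57BL/6J for the tagged allele and 129/OlaHsd with FVB/N for BirA, and the ATAC mice were males on C57BL/6J with 129/Sv under the same MMI and T3 treatments, whereas the labels give C57BL/6J for all of them. The ATAC nuclei carried a Sun1-GFP label switched on by Cre from the Thrb b2 promoter, known from cells with TSH subunits, GH or prolactin, and whether stem or folliculostellate cells carried it is not given in the sources used here. The merged replicates leave no error between replicates for a peak.

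Not 1 of the 9 genes had a pituitary TRβ site within 20 kb of its gene body, whereas 41.3% of 12898 tested genes with coordinates did. The count was also 0 for T3-regulated ATAC peaks, against 7.78% of tested genes. In the cortex Nes and Gfap had a site within 20 kb, against 34.8% of tested genes. With only 9 genes, these shares are given as a description. The pituitary TRβ sites came from pooled tissue of mixed cell types, and whether a site bound only in stem or folliculostellate cells would be found was not tested.

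Within 100 kb, pituitary sites were found at Hesx1, Nes and S100b, against 70.8% of tested genes. The site nearest to Hesx1 (chr14:27813548-27815515) lay 29.7 kb upstream at chr14:27783451-27783850, with 21 HAB;BirA and 1 control reads, in a coding exon of Appl1 and 768 bp from the Appl1 start. The cortex list held an overlapping site there with 33 and 8 reads. Nes (chr3:87775000-87784373) had its nearest pituitary site 32.0 kb upstream at chr3:87742751-87743000, with 13 HAB;BirA and 1 control reads and a false discovery rate of 1.36e-10, in an intron of Isg20l2. Its cortex site was closer, 5.6 kb upstream at chr3:87769051-87769400, intergenic, with 11 and 0 reads. That cortex site was absent from the pituitary list.

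S100b (chr10:75716598-75723904) had a pituitary site 35.2 kb downstream in a coding exon of Dip2a, with 12 HAB;BirA and 1 control reads. Gfap (chr11:102748650-102762226, minus strand) had its nearest cortex site 12350 bp downstream at chr11:102736101-102736300, in an intron of Eftud2, with 18 and 0 reads, and its nearest pituitary site at 175 kb. The median site held 18 HAB;BirA reads in the pituitary list and 13 in the cortex list. For Sox2 (chr3:34548927-34551383) the nearest pituitary site was 156 kb downstream with 60 and 3 reads. Vim (chr2:13495554-13504453), Cdh1 (chr8:109127251-109194146), Sox9 (chr11:112643538-112649074) and Gfra2 (chr14:71289927-71379645) had no peak of any list nearer than 229 kb. The nearest T3-regulated ATAC peaks among the 9 genes were 112 kb from Gfap and 180 kb from Hesx1, and the latter overlapped a pituitary TRβ site with 42 and 5 reads.

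**Figure D5:**
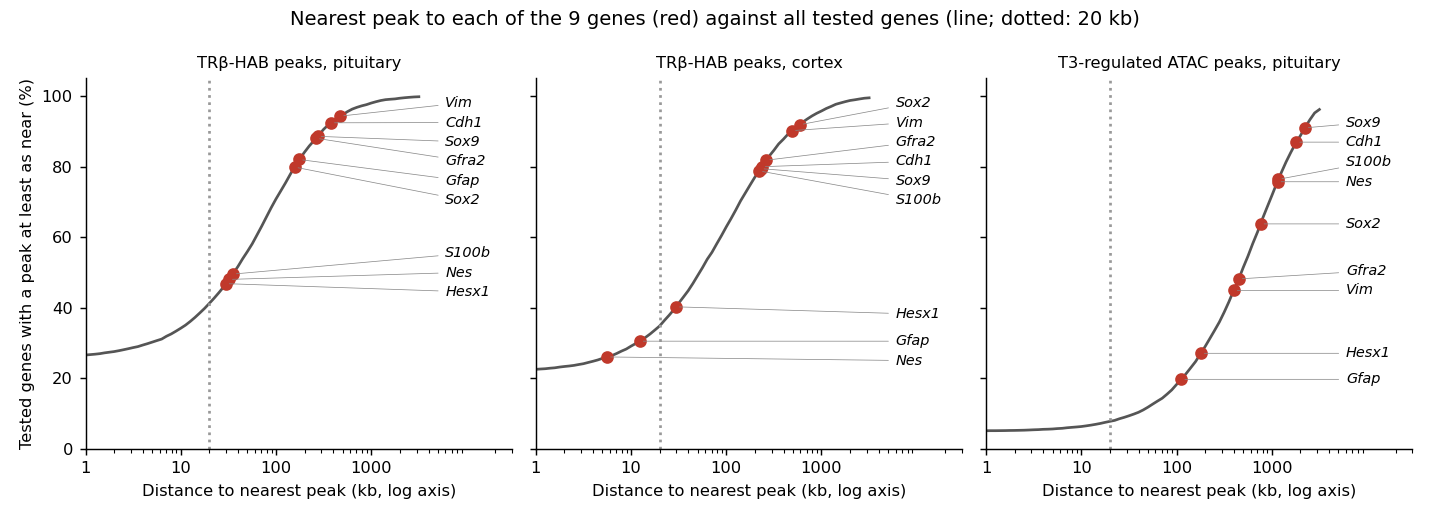
Share of tested genes (vertical axis, percent) with a peak at least as near as the distance on the horizontal axis (kb, log scale), as a line, for the 3 lists. Red points place each of the 9 genes at the distance of its nearest peak, and the dotted line marks 20 kb. Only Nes and Gfap, in the cortex panel, lie left of the dotted line.

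The sequences of 4 of these sites are shown because they are the nearest bound DNA at Nes, Gfap and Hesx1 (the Nes cortex and Hesx1 windows are the central 300 bases). TRβ typically binds direct repeats of a hexamer with a spacer of 4 bases (DR4), written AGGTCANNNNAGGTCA. Capitals mark the best match to it on either strand out of the 12 fixed letters, in the mm9 plus strand 5′ to 3′.
Nes, pituitary, chr3:87742751-87743000: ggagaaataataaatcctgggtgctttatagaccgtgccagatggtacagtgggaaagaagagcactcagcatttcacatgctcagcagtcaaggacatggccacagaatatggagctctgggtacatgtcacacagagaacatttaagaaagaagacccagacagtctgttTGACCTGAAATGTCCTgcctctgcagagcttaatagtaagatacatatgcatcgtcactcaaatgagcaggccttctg
Nes, cortex, chr3:87769076-87769375: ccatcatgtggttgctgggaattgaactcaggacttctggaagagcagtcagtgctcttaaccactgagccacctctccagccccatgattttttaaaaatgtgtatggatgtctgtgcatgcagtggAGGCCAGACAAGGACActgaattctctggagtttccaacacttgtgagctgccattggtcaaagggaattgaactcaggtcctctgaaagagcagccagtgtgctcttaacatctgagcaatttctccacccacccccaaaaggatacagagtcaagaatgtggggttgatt
Gfap, cortex, chr11:102736101-102736300: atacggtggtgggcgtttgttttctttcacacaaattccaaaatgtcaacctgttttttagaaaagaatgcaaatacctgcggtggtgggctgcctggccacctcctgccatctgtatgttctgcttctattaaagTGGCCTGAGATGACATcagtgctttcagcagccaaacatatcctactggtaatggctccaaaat
Hesx1, pituitary, chr14:27783501-27783800: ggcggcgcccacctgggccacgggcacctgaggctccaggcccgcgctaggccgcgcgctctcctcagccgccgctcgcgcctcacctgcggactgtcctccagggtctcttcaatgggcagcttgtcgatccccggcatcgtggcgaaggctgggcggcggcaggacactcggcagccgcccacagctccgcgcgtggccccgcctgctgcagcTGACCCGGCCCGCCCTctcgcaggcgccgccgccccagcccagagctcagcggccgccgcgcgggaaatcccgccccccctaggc

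The pituitary site upstream of Nes matched 11 of the 12 letters on the minus strand, as AGGACATTTCAGGTCA, which 3.52% of windows of that length at the centres of all pituitary sites equalled or exceeded. The cortex site upstream of Nes matched 10, as AGGCCAGACAAGGACA, equalled or exceeded in 6.35% of cortex windows. The Gfap site matched 10, as ATGTCATCTCAGGCCA (4.94% of cortex windows). The Hesx1 site matched 9, a count that 53.6% of pituitary windows reached, and the S100b site 8, a level reached by 89.5%. The best matches at Nes and Gfap are thus less common among sites of their lists than those at Hesx1 and S100b, and a match is a description of the letters only.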

How the data were processed

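RNA-seq of pituitary (18 libraries) and 3 peak lists were used. By the study's methods the authors mapped RNA reads to RefSeq transcripts of mm9 with BBMap, and they deposited CPM per transcript without a filter. In every library 99.9897% or more of the CPM values were whole multiples of 1 read (within 0.01), so read counts were recovered for edgeR and DESeq2. For ChAP-seq the authors merged replicates and called sites with SICER 1.1, depositing read counts, a fold ratio scaled by them, and a false discovery rate (an adjusted p-value) per peak. The deposited ATAC list gives adjusted p-values only, without direction. Histone ChIP-seq and the ChAP-seq of treated mice were not analysed here.

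The transcript with the highest mean CPM stood for its gene. limma 3.58.1 (R 4.3.3, eBayes with trend) was fitted to log2(CPM + 1) with 4 group terms, keeping genes that exceeded 1 CPM in each of 18 libraries, with Benjamini-Hochberg adjustment and calls at adjusted p under 0.05 and at least 1.5-fold. edgeR 4.0.16 on recovered reads called 1393 genes for T3 in wild type where limma called 1244. Gene positions came from GENCODE on mm9, found for 98.12% of tested genes, and python 3.11.15 read sequences from the mm9 genome. The fit was tested on simulated data before use. Depth of 21453548 to 55273749 reads put 3 reads at 0.0543 to 0.14 CPM. p-values measure the spread between pooled libraries.

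Replicate numbers come from the labels. Deviations from group means correlated between same-numbered libraries in 25 of 25 pairs (r = 0.13 to 0.815), and 10 of 25 correlated best with their own number. Same-numbered libraries always share a library set, so these correlations cannot tell pairing from the set. The replicate block was an alternative setting only. The members and gene lists were chosen with earlier results of these data known. Named genes were the 9 members, Thrb and Lars2, the 3 genes most like each tested member, called genes of the related list (at most 4 a direction and comparison) and of the marker lists (at most 2 a comparison).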

Additional observations from a re-analysis of the deposited data

Results flagged for a closer look

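Among 52 named genes in the 4 groups (208 sets of libraries), 3 held a library farther from the rest than Dixon's limit allows, where chance gives about 1 in 20. Gfap in hypothyroid wild-type replicate 3 stood at 5.03 CPM, with the next library at 2.07 CPM. Anxa1 in hyperthyroid wild-type replicate 4 stood at 2.88 CPM, with the next at 1.96 CPM. Col1a2 in hypothyroid replicate 3 labelled Thrb-KO stood at 115 CPM, with the next at 104 CPM.

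The T3 responses of 6 named genes, none of them among the 9, differed between genotypes in the limma interaction. The difference was 1.26 on the log2 scale for Thrb (adjusted p = 0.000322), 2.04 for Trhr (adjusted p = 4.99e-07) and 0.55 for Epcam (adjusted p = 0.00398). For the 3 genes most like Cdh1 it was -0.97 for Zfp862 (adjusted p = 0.000287), -0.99 for Prex1 (adjusted p = 0.0207) and -2.04 for Cecr2 (adjusted p = 8.28e-06). The cause of these values was not tested.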

How the results depend on the processing

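Of 1200 values recomputed for 8 of the 9 genes (Hesx1 has values only without a filter), the call changed for Nes by genotype under hypothyroid conditions and for Vim with T3 in wild type. The replicate block changed 1 of 40 member calls, making Vim a call (adjusted p = 0.00117), and no other. Members called for T3 in wild type were 0 as reported, 1 under the filter of at least 4 libraries, the replicate block, the library set term and replicates 1 and 2 alone, 2 with no fold limit, and 0 to 1 when each library was left out. By genotype under hypothyroid conditions 1 member was called, 0 with TMM-scaled CPM, edgeR and DESeq2, and 0 to 1 when each library was left out. Without a fold limit the genes called were 2536 and 235 for T3 in wild type and in libraries labelled Thrb-KO, and 901 and 1586 by genotype under hypothyroid and hyperthyroid conditions. With the fold limit, the last 2 were 397 and 639 as reported, and 628 and 1114 in replicates 3 to 5 alone. The share of higher calls went from 40.9% to 51.5% with edgeR and 52.5% with DESeq2 for T3 in wild type, from 58.2% to 48.0% and 47.5% for the interaction, and from 52.3% to 36.4% and 33.6% by genotype under hyperthyroid conditions (42.0% with TMM-scaled CPM). Leaving out hyperthyroid wild-type replicate 3 gave 48.7%, 46.6% and 40.6% in the same order. Of the called genes of other lists named above, Cxcr4, Anxa1 and C1qa (under both treatments) were not called in replicates 1 and 2 alone, and Lhx3, Aldh1a1, Aldh1a2, Notch2, Col1a2 and Col3a1 were not called in replicates 3 to 5 alone. Pituitary sites were at 3 members within 100 kb, and cortex sites at 0 within 5 kb.

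Estimates near 0 changed sign in some settings, with no call. In replicates 1 and 2 alone these were Sox9 with T3 in wild type (-0.14), Sox2 (-0.064), S100b (-0.20) and Gfap (-0.16) with T3 in libraries labelled Thrb-KO, and Gfap (0.43), Cdh1 (0.043) and Sox9 (-0.11) by genotype under hypothyroid conditions. In replicates 3 to 5 alone they were Vim with T3 in libraries labelled Thrb-KO (0.031), the Gfra2 interaction (0.026) and hypothyroid S100b by genotype (-0.094). Sox9 by hypothyroid genotype also gave -0.022 with TMM, -0.031 with edgeR, -0.028 with DESeq2, -0.033 with the replicate block and -0.013 with the library set. When each library was left out, T3 in libraries labelled Thrb-KO gave -0.045 to 0.046 for Cdh1, -0.048 to 0.14 for Gfap, -0.085 to 0.13 for S100b, -0.22 to 0.026 for Vim and -0.0025 to 0.059 for Sox2, and the Gfra2 interaction ran from -0.18 to 0.16. By hypothyroid genotype the ranges were -0.037 to 0.0078 for Cdh1, -0.14 to 0.22 for Gfap, -0.073 to 0.12 for S100b and -0.056 to 0.040 for Sox9, and by hyperthyroid genotype -0.35 to 0.0037 for S100b. The cause of these changes was not tested.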
